A study of Danio rerio with 4 samples.

Results

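The genes described here are those of microglia, other phagocytes and complement in the zebrafish retina, at 12 hours and 4 days after injury. They were chosen by symbol, with earlier results of these data known, from a list of name stems that covers myeloid transcription factors and receptors, leukocyte actin regulators, the phagocyte oxidase, complement, cathepsins, galectins and apolipoprotein E. Of the 2543 genes in the deposited tables, 34 with such a symbol are described here. For 31 of them levels were given in FPKM, the number of sequenced fragments scaled by transcript length and by the fragments mapped in the library, and 3 (*ptprc*, *ctsa* and *p2ry12*) were in the lists for cyclopamine alone, which hold no values. A further limit lies in the stems: 3 of the 34 (*arhgdig*, *plekha6* and *plekhn1*) share only letters with the phagocyte genes and are kept apart below. When case is ignored, 146 annotated genes have a symbol that the stems match, so most genes sought were in no table. The sizes of the groups of members below count listed genes only.

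Whole retinae of wild-type zebrafish aged 10 months were sequenced in 4 libraries, with 1 library for each group. The injured groups were retinae at 12 hours post-injury (hpi) with no agent, retinae at 4 days post-injury (dpi) with no agent, and retinae at 4 dpi from fish kept in 10 µM cyclopamine for the 4 days after injury. Each was set against the same library of uninjured retinae with no agent. Injury was a needle poke through the eye, and cyclopamine inhibits Smoothened, the transducer of Hedgehog signals. Since the cyclopamine group differs from uninjured retina by both injury and drug, the drug's own part cannot be told apart in that comparison. The number of fish behind a library is not given in the sources used here. With 1 library a group there is no replicate check and no test, every comparison is between 2 libraries, and read depth is unknown.

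Microglia are the resident macrophages of the retina. After injury they, together with phagocytes from the blood, engulf dead cells, digest them in lysosomes with cathepsins and other hydrolases, and release reactive oxygen through a membrane oxidase. Complement is a cascade of secreted proteins: C1q recognises its target, C3 is the shared hub that tags surfaces for uptake, factor B amplifies the cascade, and the late components, C7 among them, build a membrane pore.

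The tables hold only features that the authors kept as higher or lower than in uninjured retina, so a gene that is not listed has no value here and is not shown to be unchanged. Being listed is not a mark of significance: most listed features are not marked significant by the authors, and those marks were not used. At 4 dpi, 28 of the 29 listed members were higher and 1 was lower, while 60.9% of all 1466 genes listed for 4 dpi were higher and 39.1% lower. At 12 hpi, the 6 listed members were higher, beside 63.8% higher and 36.7% lower among all 605 genes listed (3 had transcripts on both sides). With cyclopamine at 4 dpi, 21 of 23 were higher and 2 were lower, beside 47.1% higher and 53.7% lower among all 1390 (12 genes were in both lists). The 3 comparisons share the uninjured library, so their counts are not independent of each other.

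**Figure D1:**
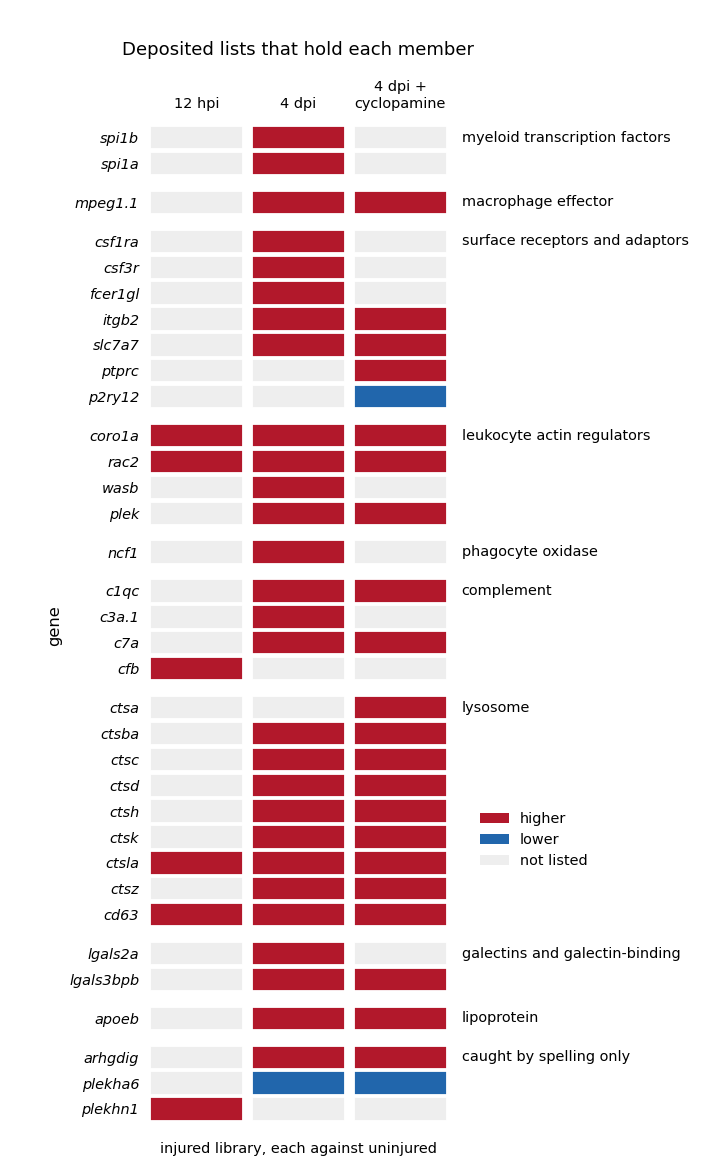
Deposited lists that hold each of the 34 genes, one row a gene, grouped by role, and one column an injured library (12 hpi, 4 dpi, 4 dpi with cyclopamine), each against the uninjured library. Red tiles are genes listed as higher, blue tiles genes listed as lower and grey tiles genes not listed. The 4 dpi column holds 28 red tiles, the cyclopamine column 21 and the 12 hpi column 6.

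The change in level is given as log2((injured FPKM + 0.1)/(uninjured FPKM + 0.1)), called the log2 ratio, which understates the difference for low genes. Over the 28 members listed as higher at 4 dpi the median log2 ratio was 2.97, or 7.82-fold, against 2.69, or 6.44-fold, over all 893 genes listed as higher. Their log2 ratios ran between 1.78 (*csf1ra* and *ctsd*) and 5.77 (*lgals2a*). A log2 ratio of at least 2 was reached by 26 of the 29 listed members, beside 49.0% of all 1466 listed genes, those listed as lower included. Among genes listed as higher it was reached by 26 of the 28 members and by 718 of all 893. A log2 ratio of at least 3 was reached by 13 of the 28, which is close to the 42.3% of all 893, so the members were listed mostly in 1 direction and with differences of a usual size for these tables. The median FPKM of the 28 members was 21.2 at 4 dpi and 2.37 in uninjured retina. In a bulk sample, fewer cells of a type and less RNA per cell cannot be told apart, and the same holds for more cells and more RNA per cell.

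**Figure D2:**
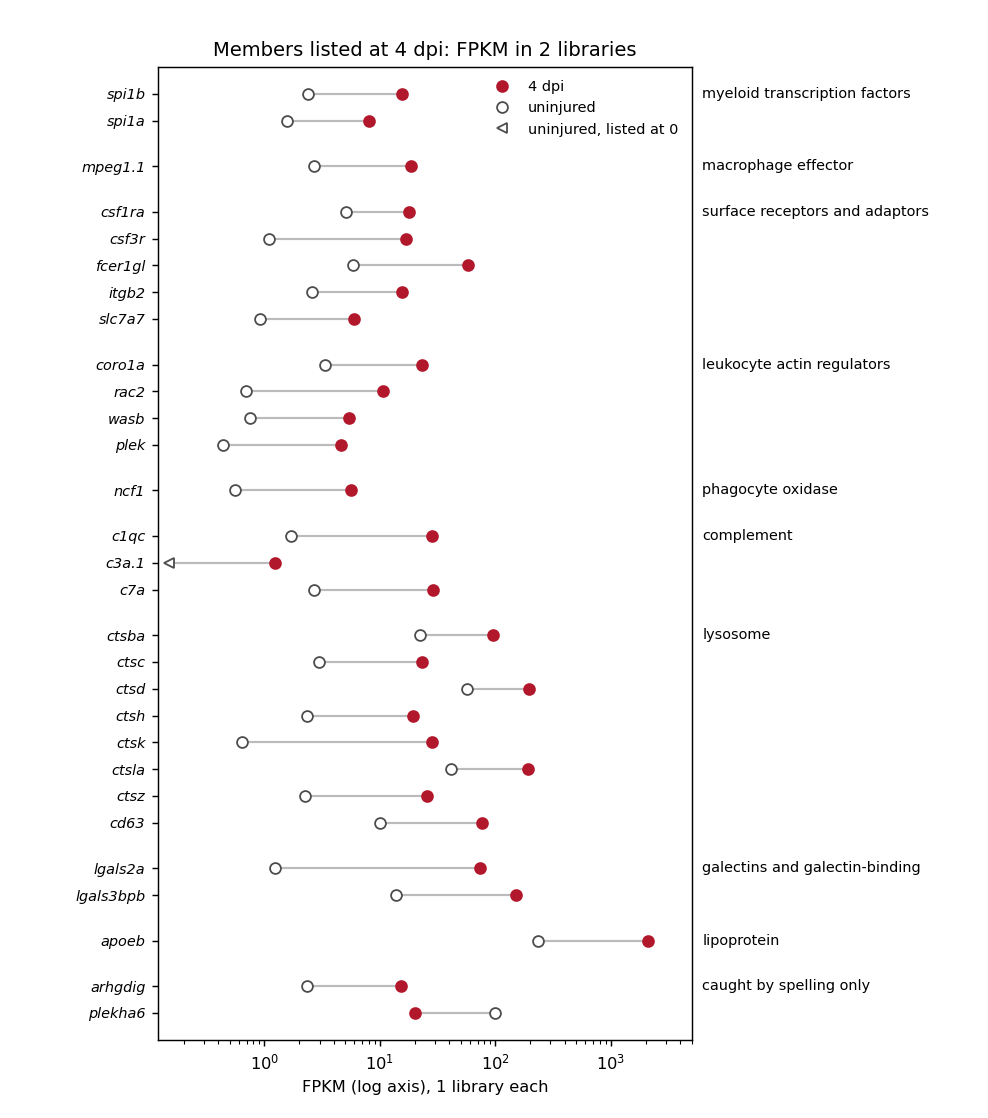
FPKM of the 29 members listed at 4 dpi, on a log axis, grouped by role. Filled circles are the 4 dpi library, open circles the uninjured library, 1 library each, and the triangle marks a gene listed at 0 in uninjured retina. The filled circle lies to the right of the open one for every gene except *plekha6*, and *apoeb* has the highest FPKM in both libraries.

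The transcription factors that set the myeloid fate were both higher at 4 dpi. *spi1b*, the main zebrafish PU.1 gene, had 15.6 FPKM at 4 dpi, against 2.39 FPKM in uninjured retina (log2 ratio 2.65, 6.28-fold). Its paralog *spi1a* had 7.97 FPKM at 4 dpi, against 1.58 FPKM in uninjured retina (log2 ratio 2.26, 4.79-fold). Neither was listed at 12 hpi or with cyclopamine. *mpeg1.1*, which encodes the pore-forming perforin-2 and is the usual marker of zebrafish macrophages and microglia, had 18.5 FPKM at 4 dpi and 2.71 FPKM in uninjured retina (log2 ratio 2.73). *mpeg1.1* was also listed as higher with cyclopamine. Reads of *mpeg1.1* may be shared with its near copy *mpeg1.2*, which was in no table, so its value is uncertain to that extent.

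Of the 7 members that are surface receptors and adaptors, 5 were higher at 4 dpi. *csf1ra*, the receptor for colony stimulating factor 1 on macrophages and, in zebrafish, on yellow pigment cells, had the smallest ratio of the group, with 17.8 FPKM at 4 dpi and 5.10 FPKM in uninjured retina (log2 ratio 1.78). The largest ratio of the group was that of *csf3r*, the granulocyte colony stimulating factor receptor that marks neutrophils, with 16.9 FPKM at 4 dpi and 1.1 FPKM in uninjured retina (log2 ratio 3.83). The 2 growth factor receptors thus had similar levels at 4 dpi, and *csf1ra* was the higher of them in uninjured retina. *fcer1gl*, a gene like that of the signalling gamma chain of Fc receptors, had the highest FPKM of the group, 58.3 at 4 dpi and 5.81 in uninjured retina (log2 ratio 3.31). *itgb2*, the beta chain of the leukocyte integrins, had 15.5 FPKM at 4 dpi and 2.60 FPKM in uninjured retina (log2 ratio 2.53). *slc7a7*, an amino acid transporter that zebrafish microglia need in order to form, had 6.02 FPKM at 4 dpi and 0.918 FPKM in uninjured retina (log2 ratio 2.59). The 2 others were in the cyclopamine lists alone and on opposite sides: *ptprc*, the pan-leukocyte phosphatase CD45, was listed as higher, and *p2ry12*, the nucleotide receptor that marks resting microglia, was listed as lower.

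The 4 members that regulate the leukocyte actin skeleton were all higher at 4 dpi. A gene had to be listed to be a member, and *lcp1*, which the stems also sought, was in no table. *coro1a*, the leukocyte coronin, had 23.0 FPKM at 4 dpi and 3.32 FPKM in uninjured retina (log2 ratio 2.76). *rac2*, the blood-cell Rac GTPase that drives migration and also switches on the oxidase, had 10.6 FPKM at 4 dpi and 0.698 FPKM in uninjured retina (log2 ratio 3.74). These were the only members of the group listed at 12 hpi. *wasb*, a Wiskott-Aldrich syndrome protein gene that promotes actin branching, had 5.39 FPKM at 4 dpi and 0.747 FPKM in uninjured retina (log2 ratio 2.70). *plek*, the leukocyte and platelet protein pleckstrin, had 4.63 FPKM at 4 dpi and 0.435 FPKM in uninjured retina (log2 ratio 3.14). All except *wasb* were listed as higher with cyclopamine too.

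Of the phagocyte oxidase, *ncf1*, which encodes the cytosolic subunit p47phox, had 5.61 FPKM at 4 dpi and 0.557 FPKM in uninjured retina (log2 ratio 3.12). *ncf1* was in no other list. The membrane subunit genes *cyba* and *cybb*, which the list of stems also sought, were in no table.

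Complement was represented by 4 members, 3 of them higher at 4 dpi. *c1qc*, a chain of the recognition molecule C1q that macrophages and microglia make, had 28.4 FPKM at 4 dpi and 1.69 FPKM in uninjured retina (log2 ratio 3.99). *c7a*, of the late pore-forming step, had 28.6 FPKM at 4 dpi and 2.71 FPKM in uninjured retina (log2 ratio 3.35). Both *c1qc* and *c7a* were listed as higher with cyclopamine. The genes *c1qa* and *c1qb*, which the stems also sought, were in no table. *c3a.1*, 1 of several zebrafish C3 copies, had only 1.23 FPKM at 4 dpi and was listed at 0 in uninjured retina, so no fold is given. *cfb*, complement factor B, appeared at 12 hpi alone, with 1.39 FPKM in 1 transcript at 12 hpi, again listed at 0 in uninjured retina. The 2 members listed at 0 were thus also the 2 of the group with the lowest levels after injury, close to the smallest values that the tables hold (1.01 FPKM in the higher library).

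The lysosomal genes were the largest group, with 9 members. The 8 of them listed as higher at 4 dpi were all listed as higher with cyclopamine too. The other, *ctsa*, became a member only through the higher cyclopamine list, so its place there was fixed by the choice of members. The most abundant were also abundant before injury. *ctsd*, the aspartic protease cathepsin D, had 197 FPKM at 4 dpi and 57.1 FPKM in uninjured retina (log2 ratio 1.78). *ctsla*, a cathepsin L gene, had 190.4 FPKM at 4 dpi and 41.0 FPKM in uninjured retina (log2 ratio 2.21). *ctsba*, a cathepsin B gene, had 95.3 FPKM at 4 dpi and 22.4 FPKM in uninjured retina (log2 ratio 2.08). These 3 had the 3 highest uninjured levels and the 3 smallest ratios of the group. *cd63*, a tetraspanin of late endosomes and lysosomes found in many cell types, lay between, with 76.8 FPKM at 4 dpi and 10.1 FPKM in uninjured retina (log2 ratio 2.92).

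The other cysteine cathepsins started low. *ctsk*, a cathepsin K gene known in mammals for the collagen breakdown of osteoclasts, had 28.4 FPKM at 4 dpi and 0.642 FPKM in uninjured retina (log2 ratio 5.26, 38.4-fold). It had the lowest uninjured level and by far the largest ratio of the group. *ctsz* had 25.5 FPKM at 4 dpi and 2.25 FPKM in uninjured retina (log2 ratio 3.44). *ctsc*, which in mammals activates the serine proteases of leukocyte granules, had 23.3 FPKM at 4 dpi and 2.94 FPKM in uninjured retina (log2 ratio 2.94). *ctsh* had 19.3 FPKM at 4 dpi and 2.34 FPKM in uninjured retina (log2 ratio 2.99). At 4 dpi *ctsk*, *ctsz*, *ctsc* and *ctsh* were therefore within a narrow range of 19.3 to 28.4 FPKM, although *ctsk* was the lowest of the 4 in uninjured retina. *ctsa*, the carboxypeptidase cathepsin A, was listed with cyclopamine alone.

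*lgals2a*, a galectin gene, had the largest ratio of all members, with 72.9 FPKM at 4 dpi and 1.24 FPKM in uninjured retina (log2 ratio 5.77, 54.5-fold). By ratio it ranked at position 40 among the 893 genes listed as higher, and *ctsk*, the next member, at position 69. *lgals3bpb*, a gene of the galectin-3-binding protein family, had 151 FPKM at 4 dpi and 13.9 FPKM in uninjured retina (log2 ratio 3.43). Only *lgals3bpb* of this pair was listed with cyclopamine, as higher.

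*apoeb*, an apolipoprotein E gene that zebrafish microglia express strongly, was the most abundant member, with 2111 FPKM at 4 dpi and 234 FPKM in uninjured retina (log2 ratio 3.17, 9.03-fold). Among the 893 genes listed as higher it ranked at position 4 by its level at 4 dpi and at position 3 by its level in uninjured retina. The summed FPKM of the 28 members was 3270.0 at 4 dpi and 422 in uninjured retina, of which *apoeb* made up 64.6% at 4 dpi and 55.3% in uninjured retina. Without *apoeb* the sums were 1159 FPKM at 4 dpi and 189 FPKM in uninjured retina. A summed level of these genes is therefore largely a reading of *apoeb*, which other retinal cells can also express.

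**Figure D3:**
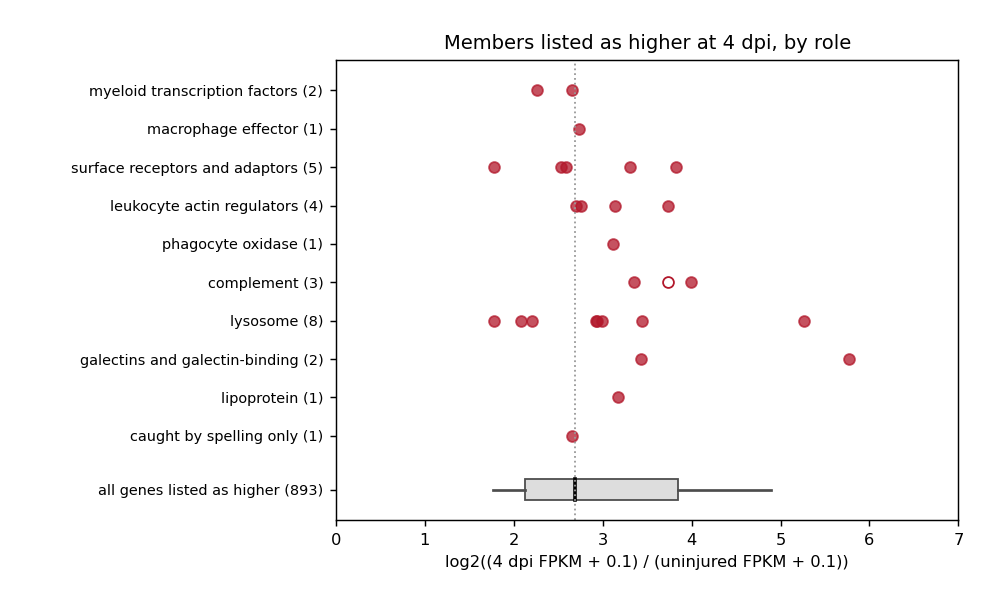
Log2 ratio of 4 dpi over uninjured FPKM (0.1 added to each) for the 28 members listed as higher, one point a gene and one row a role, with the number of genes in parentheses. The bottom row shows all 893 genes listed as higher, with the box from the 25th to the 75th percentile (2.13 to 3.85), whiskers at the 10th and 90th (1.77 and 4.89) and a bar and dotted line at the median of 2.69. The open point is *c3a.1*, listed at 0 in uninjured retina, whose ratio depends on the added constant. Only *lgals2a* and *ctsk* lie beyond the upper whisker.

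Of the genes caught by spelling, *arhgdig*, a regulator gene of small GTPases, had 15.2 FPKM at 4 dpi and 2.32 FPKM in uninjured retina (log2 ratio 2.66) and was also higher with cyclopamine. *plekha6*, of the pleckstrin homology domain family, was the only member listed as lower at 4 dpi, with 20.0 FPKM at 4 dpi and 98.8 FPKM in uninjured retina (log2 ratio -2.30), and it was lower with cyclopamine too. *plekhn1* was listed at 12 hpi alone, with 7.32 FPKM at 12 hpi and 1.73 FPKM in uninjured retina (log2 ratio 2.02). Without these 3, every member listed at 4 dpi was higher.

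Fewer members were listed at 12 hpi, where the values are per transcript and fewer genes were listed in all (386 higher, against 893 at 4 dpi). The complement genes *c7b* and *c4b*, described further below, were also higher at 12 hpi but escaped the stems by their spelling. The median log2 ratio of the 6 higher members was 2.52, or 2.2 without *cfb*, which was listed at 0 in uninjured retina. Over all 386 genes listed as higher it was 3.25, or 2.69 without the genes at 0. A log2 ratio of at least 2 was reached by 5 of the 6 listed members, beside 54.4% of all listed genes, those listed as lower included. Among the 386 genes listed as higher, 331 reached it, so the members were not unusual in this. None of the transcription factors, receptors, galectins or *apoeb* was listed at 12 hpi.

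For 4 members the tables of both times gave values. The FPKM of *cd63* was 10.1 in uninjured retina, 72.7 at 12 hpi and 76.8 at 4 dpi, so that it was almost as high at 12 hpi as at 4 dpi. The listed transcript of *ctsla* had 158 FPKM at 12 hpi and 34.3 FPKM in uninjured retina, and the gene had 190.4 FPKM at 4 dpi and 41.0 FPKM in uninjured retina. The log2 ratios of *ctsla* were 2.2 at 12 hpi and 2.21 at 4 dpi. For the actin regulators, the FPKM given at 12 hpi was below that at 4 dpi, which for *rac2* sets 1 transcript against the whole gene. The FPKM of *coro1a* was 3.32 in uninjured retina, 11.7 at 12 hpi (log2 ratio 1.79) and 23.0 at 4 dpi. The FPKM of *rac2* was 0.698 in uninjured retina, 7.38 at 12 hpi in its listed transcript (log2 ratio 3.23) and 10.6 at 4 dpi for the gene. *cd63* and *coro1a* have 1 annotated transcript each, so gene and transcript levels coincide for them. The listed transcript of *rac2* held all of the gene's uninjured FPKM to 3 digits, and that of *ctsla* held 83.6%. The shares that these transcripts held at 12 hpi are not given.

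**Figure D4:**
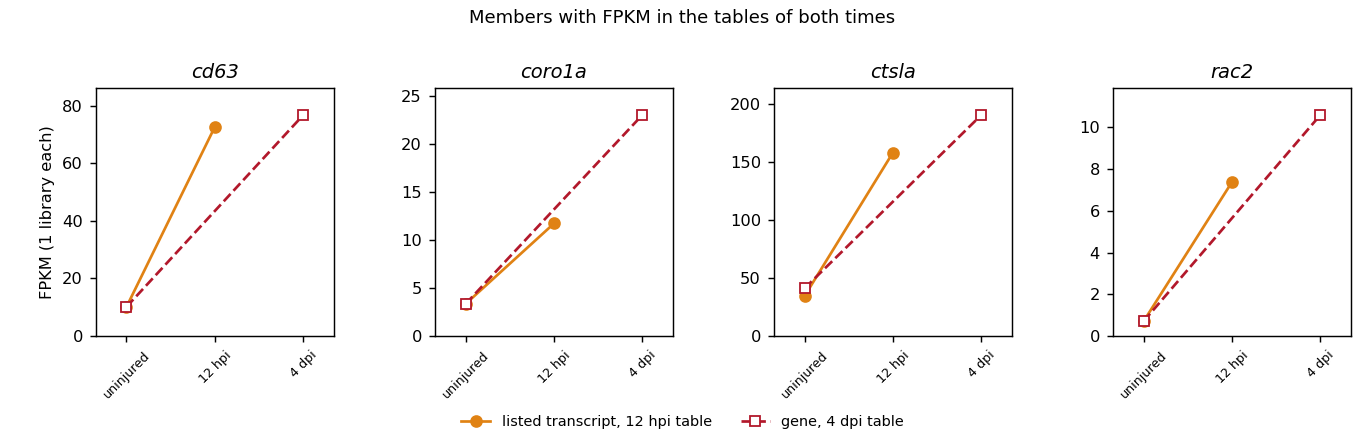
FPKM of the 4 members with values at both times, one panel a gene, each on its own linear axis from 0, in uninjured retina, at 12 hpi and at 4 dpi (1 library each). Filled circles joined by a solid line are the listed transcript from the 12 hpi table, and open squares joined by a dashed line are the gene from the 4 dpi table. *cd63* and *ctsla* are near their 4 dpi level by 12 hpi, while *coro1a* (11.7 FPKM at 12 hpi and 23.0 FPKM at 4 dpi) lies further below it.

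With cyclopamine, 19 members were listed as higher that were also higher at 4 dpi without it, which is 67.9% of the 28 higher at 4 dpi and 90.5% of the 21 higher with cyclopamine. Over all listed genes, 354 were in both of these higher lists, which is 39.6% of 893 and 54.0% of 655. Of the members higher at 12 hpi, 4 were higher at 4 dpi, which is 66.7% of the 6 and 14.3% of the 28. Over all listed genes, 118 were in both, which is 30.6% of 386 and 13.2% of 893. The same 4 genes, *cd63*, *coro1a*, *ctsla* and *rac2*, were higher in all 3 comparisons. These shares are descriptions of lists that share 1 uninjured library, and no difference between the shares was tested.

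By role, the lists with and without cyclopamine differed in which genes they held. The 8 lysosomal genes higher at 4 dpi were in both higher lists, as were *c1qc*, *c7a*, *mpeg1.1*, *apoeb* and *lgals3bpb*. The 9 members higher at 4 dpi that were not in the higher cyclopamine list were *spi1b*, *spi1a*, *csf1ra*, *csf3r*, *fcer1gl*, *wasb*, *ncf1*, *c3a.1* and *lgals2a*. They are 32.1% of the 28, beside 60.4% of all 893 genes higher at 4 dpi that were not in the higher cyclopamine list. They include both transcription factors and both growth factor receptors among the members. In contrast, *irf8*, a macrophage transcription factor outside the stems, was in both higher lists. Since the cyclopamine lists hold no values and 4 dpi with and without cyclopamine were not set against each other, a difference between them was not tested. Nothing is known of the level of these 9 genes with cyclopamine, since they are in neither of its lists. *apoeb* stood in 2 rows of the higher list.

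Markers of the cell types that a retina sample can hold were also looked up, from lists written with earlier results of these data known. Of the 21 microglia and macrophage markers 8 are members themselves, so their counts in part repeat those of the members and are no separate check. The marker counts by direction stand beside those of all listed genes, of which 60.9% were higher at 4 dpi, 63.8% at 12 hpi and 47.1% with cyclopamine. The size of each marker list counts genes sought, listed or not, so only the directions can be compared with these shares. Of 21 microglia and macrophage markers, 10 were listed as higher at 4 dpi, none was listed as lower, and none was listed at 12 hpi. With cyclopamine 5 of the 21 were listed as higher and 1, *p2ry12*, as lower. The 10 summed to 2529 FPKM at 4 dpi and 308 FPKM in uninjured retina, mostly from *apoeb*. Of these 10, *mpeg1.1*, *csf1ra*, *apoeb*, *spi1b*, *spi1a* and *slc7a7* are members whose values are given above. The others included *cd74a*, the invariant chain of antigen presentation (175 FPKM at 4 dpi and 35.2 FPKM in uninjured retina). Another was *irf8*, a macrophage transcription factor (10.4 FPKM at 4 dpi and 1.73 FPKM in uninjured retina). Of 12 neutrophil markers, 3 were higher at 4 dpi (*csf3r*, *nccrp1* and *lect2l*), with sums of 32.5 FPKM at 4 dpi and 4.06 FPKM in uninjured retina. *lect2l* was also higher at 12 hpi, with 6.44 FPKM at 12 hpi, and listed at 0 in uninjured retina, and *lect2l* and *npsn* were higher with cyclopamine. The defining granule genes *mpx* and *lyz* were in no table. None of the 10 symbols sought for lymphocytes and none of the 8 for endothelium was in a table. Markers outside the stems were sought by exact, case-sensitive symbol alone, so some spelled otherwise may have been missed. Of 7 red blood cell markers, *slc4a1a* was higher at 12 hpi and *alas2* lower with cyclopamine. Of 12 pigment epithelium markers *pmelb* was higher with cyclopamine, and of 8 rod markers *sagb* was lower with cyclopamine. Since the tables hold only listed genes, the absence of most retinal markers from them does not bear on the identity of the tissue. Other markers were higher in the same library: of 8 proliferation genes 7 were higher at 4 dpi (233 FPKM summed at 4 dpi and 22.9 FPKM in uninjured retina), and *gfap*, of reactive glia and the only 1 of 10 Müller glia markers in a table, had 84.5 FPKM at 4 dpi and 10.2 FPKM in uninjured retina. With cyclopamine 2 of the 8 proliferation genes, *mki67* and *mcm5*, and also *gfap* were listed as higher. Their part in the levels of the members was not tested.

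Genes of the same pathways outside the stems were taken from 3 lists, the first of which shares genes with the marker list above. Among all listed genes 60.9% were higher at 4 dpi, 63.8% at 12 hpi and 47.1% with cyclopamine. These shares are of listed genes, while the 77, 61 and 32 below are genes sought, listed or not. They can therefore be compared by direction only. The share of all annotated genes that was listed is not given here. Of 77 other leukocyte and phagocyte genes, 23 were higher at 4 dpi and none was lower. At 12 hpi 4 were higher and 1 was lower, and with cyclopamine 12 were higher and none was lower. These counts rest on exact symbols. With case ignored and other names matched, 25 of the 77 were higher at 4 dpi, and 6 of the 61 lysosome and phagosome genes given below. Of the 23, 4 (*irf8*, *cd74a*, *cd74b* and *ccl34b.1*) are among the 10 microglia and macrophage markers already counted, and 19 are not. Whether cells other than leukocytes express the 23, such as the annexin genes among them, was not examined. The counts are therefore no measure of leukocytes. The gene lower at 12 hpi was *syk*, the kinase downstream of Fc receptors, in 1 transcript. This transcript had 0.0004 FPKM at 12 hpi and only 1.31 FPKM in uninjured retina (log2 ratio -3.81). The level of the whole gene at 12 hpi is not given. Those with the highest FPKM at 4 dpi were *cd74a*, *anxa2a*, *s100a10b* and *cotl1*. *anxa2a*, encoding annexin A2, had 108 FPKM at 4 dpi and 3.85 FPKM in uninjured retina (log2 ratio 4.77), and its protein's binding partner *s100a10b* had 105 FPKM at 4 dpi and 26.1 FPKM in uninjured retina (log2 ratio 2.0). Of 61 other lysosome and phagosome genes, 5 were higher at 4 dpi, led by *lgmn*, the protease legumain, with 132 FPKM at 4 dpi and 32.0 FPKM in uninjured retina (log2 ratio 2.04), and 6 were higher and 1, *psap*, was lower with cyclopamine. At 12 hpi *atp6v0ca*, a proton pump subunit gene, was the only 1 listed, as higher, with 51.1 FPKM in 1 transcript at 12 hpi, and listed at 0 in uninjured retina. For *atp6v0ca* too, the level of the whole gene in these libraries is not given. Of 32 other complement genes only *cfp*, which encodes the activator properdin, was in a table, with 10.7 FPKM at 4 dpi and 1.59 FPKM in uninjured retina (log2 ratio 2.67). The stems name the cathepsin family and take only those of its genes that are in a table, so the share of cathepsins listed cannot be set against the shares of these lists.

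The tables' own annotation gave the members' shared properties. Among the 28 higher at 4 dpi, 8 (28.6%) carried a gene ontology term for the lysosome, beside 12 (1.34%) of all 893, and 6 (21.4%) carried the papain family protease domain, beside 7 (0.784%). All 6 members with this domain are cathepsins, which the stems name, so that share follows from the choice of members. The lysosome share follows from it in part. The 893 include the 28 members. A term for an immune or inflammatory response was carried by 2 members (7.14%) and by 39 (4.37%) of all 893, so that this annotation alone would have missed most of the members. By position, 5 of the 28 (17.9%) lie on chromosome 3, beside 54 (6.05%) of all 893, and 3 (10.7%) on chromosome 16, beside 44 (4.93%). No other chromosome was counted, and the choice of these was not planned. Of those on chromosome 3, *arhgdig* (caught by spelling only), *lgals2a*, *rac2* and *coro1a* lie between positions 27582767 and 30810520 in GRCz10. *lgals3bpb* starts at position 57671408. No other listed gene overlaps the annotated locus of a member, but reads from close paralogs (*c3a.1*, *ctsla*, *c7a*, *lgals2a* and *mpeg1.1* have such copies) could have been divided in counting, so their levels are less certain.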

How the data were processed

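RNA of whole retinae was sequenced with paired-end reads, 1 library each for 12 hpi, 4 dpi, 4 dpi with cyclopamine and uninjured retina. The deposited tables give FPKM as the authors computed it, for transcripts in the 12 hpi comparison and for whole genes in the 4 dpi comparison, with the uninjured FPKM in a second column. For cyclopamine the deposited lists hold identifiers and symbols without values, and whether their rows are genes or transcripts is not given in the sources used here. The submitters' processing notes name TopHat2 2.1.0, Bowtie2 2.2.2, Cufflinks 2.2.1 and GRCz10. The deposited tables also hold the authors' fold changes, test statistics, p-values and significance marks, which were not used. Most listed features are not marked significant there. Depth is unknown, and no p-values were computed here, since 1 library a group gives no measure of the spread within a group.

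Members were found by a case-sensitive match of the start of the symbol in the tables, and genes by Ensembl identifier. Of the genes found, 1 is not reported here and is left out of every count of members. The log2 ratio was computed with a pseudocount of 0.1 FPKM, using for a gene with several transcripts listed at 12 hpi the one with the largest mean FPKM. Genes at exactly 0 in a library are described as listed at 0. Every member may be named, and of each other list at most 4 genes with values, those with the highest FPKM, beside *irf8*, *syk*, *lect2l* and *atp6v0ca*, which were named after their values were seen. The members and lists were chosen with earlier results of these data known. Positions were copied from the deposited tables, whose counting base (0 or 1) is not given in the sources used here. The identifiers of the 34 members were present in the gene name table used. A planned search of promoters for motifs was not run, since no sequence was used here. Calculations used Python 3.11.15 and were tested on simulated data, and figures were drawn with matplotlib 3.10.9. Alternatives were other pseudocounts, minimum levels and ratios, other handling of transcripts and repeated rows, and other matching of names.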

Additional observations from a re-analysis of the deposited data

How the results depend on the processing

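The number of members listed as higher ranged from 26 to 31 at 4 dpi, from 5 to 8 at 12 hpi and from 20 to 25 with cyclopamine over all alternatives tried. None of these alternatives could reverse a direction. A pseudocount does not change the sign of a ratio, and the others only add, drop or combine features already listed by direction. With a pseudocount of 1 FPKM the median log2 ratio of the members higher at 12 hpi was 1.89 in place of 2.52. The count of members lower at 12 hpi was 0, and 1 when case was ignored and current gene names were also matched, an alternative added after the data were seen. Without the *plekh* and *arhgd* genes the count of lower members was 0 at 4 dpi and 1 with cyclopamine. Of 35 single values, a pseudocount of 1 FPKM moved 11 by more than 1.5-fold, all of them towards smaller differences. No paired analysis was possible because each group has 1 library, and for the same reason no library could be left out. Low levels, such as those of *c3a.1* and *cfb*, are the least certain at unknown depth.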

Other observations

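Some genes of the same kind escaped the stems only because the tables spell them in capitals or under another name. They were found after the data were seen, by ignoring case and matching current gene names, and are not counted among the 34. The largest values were those of a C7 gene, now named *c7b*, a late complement component. Its listed transcript had 196 FPKM at 12 hpi and 1.64 FPKM in uninjured retina (log2 ratio 6.82), and the gene had 51.7 FPKM at 4 dpi and 1.64 FPKM in uninjured retina (log2 ratio 4.89). It was listed as higher with cyclopamine as well. In contrast to the members listed at both times with higher values, *c7b* had its higher level at 12 hpi, and its paralog *c7a* was not listed at 12 hpi.

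A C4 gene, now named *c4b*, of the classical complement pathway, had 6.82 FPKM at 12 hpi and 0.284 FPKM in uninjured retina in its listed transcript (log2 ratio 4.17), and was listed as higher with cyclopamine. *laptm5*, a lysosomal membrane protein gene of blood cells, had 25.7 FPKM at 4 dpi and 1.61 FPKM in uninjured retina (log2 ratio 3.91), and was higher with cyclopamine too. The integrin alpha chain gene now named *itgam.1*, whose product pairs with that of *itgb2*, had 7.97 FPKM at 4 dpi and 1.61 FPKM in uninjured retina (log2 ratio 2.24). *cd68*, a macrophage lysosomal glycoprotein gene, was listed as higher with cyclopamine alone. The same matching also caught *PLEKHA4*, by spelling only, which was listed as lower at 12 hpi. Its listed transcript had 0.622 FPKM at 12 hpi and 3.42 FPKM in uninjured retina (log2 ratio -2.29). These are values of single libraries, and none was tested.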
